A study of Homo sapiens with 16 samples.

Results

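The RAB genes encode small GTPases of membrane traffic, and their mRNAs were followed here through a pulldown of RNA bound to the RNA-induced silencing complex (RISC). Members were all genes of the count table whose symbol is RAB followed by a number and at most a letter and a digit, which gave 60 of 19077 genes. All 60 RefSeq accessions matched current RefSeq entries, and RAB7L1 is now named RAB29. The cells were HEK 293, a line made from human embryonic kidney. RISC-trap uses dominant-negative GW182, which TNRC6A encodes, to hold mRNAs on RISC loaded with a chosen microRNA (miRNA), and the series asks which mRNAs primate miRNAs bind. The 16 libraries fall into 8 groups: mir1301-3p, mir1180-3p, mir550-3p, mir1271-5p, mir3613-5p and mir1260a-5p with 2 libraries each, mir124-3p_Solid with 1 and mir124-3p_Illumina with 3. No library without a miRNA is named in the labels, so every value is relative to other pulldowns. The dose of miRNA and the time of harvest are not given in the labels, and neither is whether replicate libraries came from separate cultures. The p-values therefore set differences between miRNAs against the spread between these libraries, estimated over all groups of a fit together.

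A RAB protein is anchored to a membrane by prenyl groups and switches between a GTP-bound and a GDP-bound form. Guanine nucleotide exchange factors (GEFs) turn it on, GTPase-activating proteins (GAPs) turn it off, and effectors that bind the GTP form move, tether or fuse vesicles. Each member marks its own compartments, from the Golgi through early, recycling and late endosomes to secretory granules and the cilium.

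The mature miRNAs are shown because the seed, bases 2 to 8 in capitals, largely sets which mRNAs a miRNA pairs with. Sequences are from RefSeq on build GRCh38.p14, 5′ to 3′.
mir1180-3p: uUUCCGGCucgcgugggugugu
mir1260a-5p: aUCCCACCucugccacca
mir1271-5p: cUUGGCACcuagcaagcacuca
mir1301-3p: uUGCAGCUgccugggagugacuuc
mir3613-5p: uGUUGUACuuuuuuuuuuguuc
mir550-3p: uGUCUUACucccucaggcacau
The 6 seeds all differ, so no pair of these miRNAs shares one. RefSeq names the second miR-1260a, with no arm, and the last miR-550a-3p. The mature sequence of MIR1180 lies at chr17:19344513-19344534 on the minus strand within the span of B9D1. That of MIR1260A lies at chr14:77266231-77266248 on the plus strand within NGB, and that of MIR1271 at chr5:176367960-176367981 on the plus strand within ARL10. The mature sequence of MIR1301 lies at chr2:25328651-25328674 on the minus strand within DNMT3A, and that of MIR3613 at chr13:49996465-49996486 on the minus strand within DLEU2. The mir550-3p sequence occurs in MIR550A3 at chr7:29680748-29680769 on the minus strand and in MIR550A2 at chr7:32733041-32733062 on the plus strand. Pairing of these seeds with RAB mRNAs was not analysed here.

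Library totals lay between 7612758 and 26527365 counts. Levels below are CPM, the share of a library's counts on a common scale, normalised over all 16 libraries. Because transcript lengths were not used, levels of different genes are not compared. Partner libraries differed by more than counting error, with a chi-square per degree of freedom of 39.6 to 91.6 in the 6 miRNAs with 2 libraries and 7.58 to 106 among the Illumina libraries of mir124-3p. HEK 293 markers (8 of 8 in the table, none at 0 in the 12 libraries of the 6 miRNAs) summed to 784 to 846 CPM in the mir1301-3p libraries and 778 to 1170 CPM in the other 10. Fibroblast and mesenchyme markers, 10 of 10 in the table and none at 0 in the 12 libraries, summed to 78.0 and 191 CPM in the mir1301-3p libraries, against 20.5 to 50.2 CPM in the other 10. Of those 10 markers 7 were called higher with mir1301-3p and none lower. Markers of blood summed to 20.9 to 30.4 CPM with mir1301-3p, against 12.1 to 28.2 CPM, with HBA1, HBB and LYZ at 0 in some library. Liver and keratinocyte markers summed to 10.6 to 23.4 CPM, against 3.98 to 13.7 CPM, and neuron and glia markers to 49.3 to 90.3 CPM, against 59.4 to 109 CPM. The part of these markers in the mir1301-3p results below was not tested. TNRC6A held 5.11% of counts in the mir124-3p_Solid library, 4%, 1.07% and 3.97% in Illumina libraries 1, 2 and 3, and 0.665% to 1.49% in the 12 others.

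Over the 12 libraries, 40 of the 60 RAB genes had a median of at least 10 CPM, 15 lay between 1 and 10 CPM, and 5 lay under 1 CPM. The filter on low counts kept 58 of them, all but RAB19 and RAB25. RAB mRNAs together took 0.457% and 0.535% of all counts in the mir1301-3p libraries, against 0.322% to 0.418% in the other 10. RAB40B alone was 21.9% and 23.1% of the RAB counts with mir1301-3p, against 3.35% to 5.46% in the other 10. Without RAB40B the shares were 0.357% and 0.412% with mir1301-3p, against 0.304% to 0.403%, and the ranges overlapped.

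The range of the 6 group means of log2 CPM had a median of 1.12 over the 58 genes, the largest of a gene's 6 gaps between partner libraries a median of 1.14, and its median gap a median of 0.50. In 28 of the 58 the range of means exceeded the largest partner gap. The same count was not made over all genes, so it cannot be set against a background. A quasi-likelihood F test for any difference among the 6 miRNAs called 6 of 58 RAB genes (10.3%) at an adjusted p under 0.05, against 5.72% of all genes tested. They were RAB40B (adjusted p = 0.000107), RAB23 (0.00167), RAB37 (0.00242), RAB34 (0.00594), RAB32 (0.0395) and RAB9A (0.0458). RAB32 and RAB9A lost this call in 8 of 17 alternative analyses, and the other 4 kept it in all 17.

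**Figure D1:**
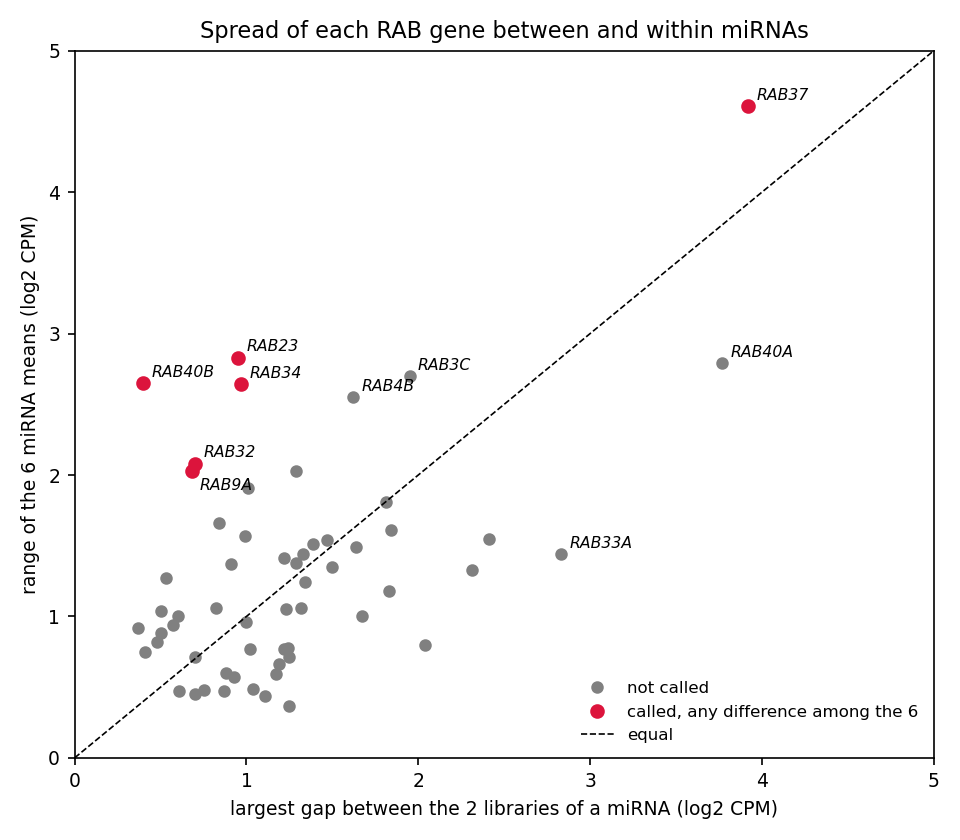
Each point is a RAB gene, with the largest gap between the 2 libraries of a miRNA on the x axis and the range of the 6 miRNA means on the y axis, both in log2 CPM. RAB40B pairs a range of 2.65 with a largest gap of 0.40, whereas RAB37 pairs 4.61 with 3.92, and red points passed the test for any difference.

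Each miRNA was then compared with the other 5 averaged, with adjusted p-values over all 17658 genes tested. A log2 fold change is given ± its standard error throughout. These comparisons share their reference libraries, so they are not independent of each other. With mir1301-3p, 5 RAB genes rose and 4 fell (8.62% and 6.90% of 58), against 11.5% and 4.39% of all genes, so the shares were near the background. With mir1271-5p 2 rose (3.45%), against 0.606% of all genes, and 0 fell, against 0% of all genes; 2 were lower at an unadjusted p under 0.05 (3.02% of all genes) and DESeq2 called 0 lower. With mir1180-3p 1 rose, against 1.92% of all genes, and 0 fell, against 0.153%; 5 were lower at an unadjusted p under 0.05 (6.45% of all genes), and DESeq2 called RAB34 lower. With mir550-3p 1 rose, against 1.20% of all genes, and 1 fell, against 0.306%.

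With mir1260a-5p edgeR called 0 RAB genes, against 0.215% of all genes higher and 0% lower, and DESeq2 called 0. At an unadjusted p under 0.05 it had 3, or 5.17% against 5.33% of all genes. With mir3613-5p edgeR also called 0, against 0.0906% higher and 0% lower, while DESeq2 called RAB37 lower. At an unadjusted p under 0.05 there were 9, or 15.5% against 14.1% of all genes. The median log2 fold change of the 58 RAB genes lay between -0.17 and 0.17 in the 6 comparisons, and that of all genes between -0.07 and 0.05.

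**Figure D2:**
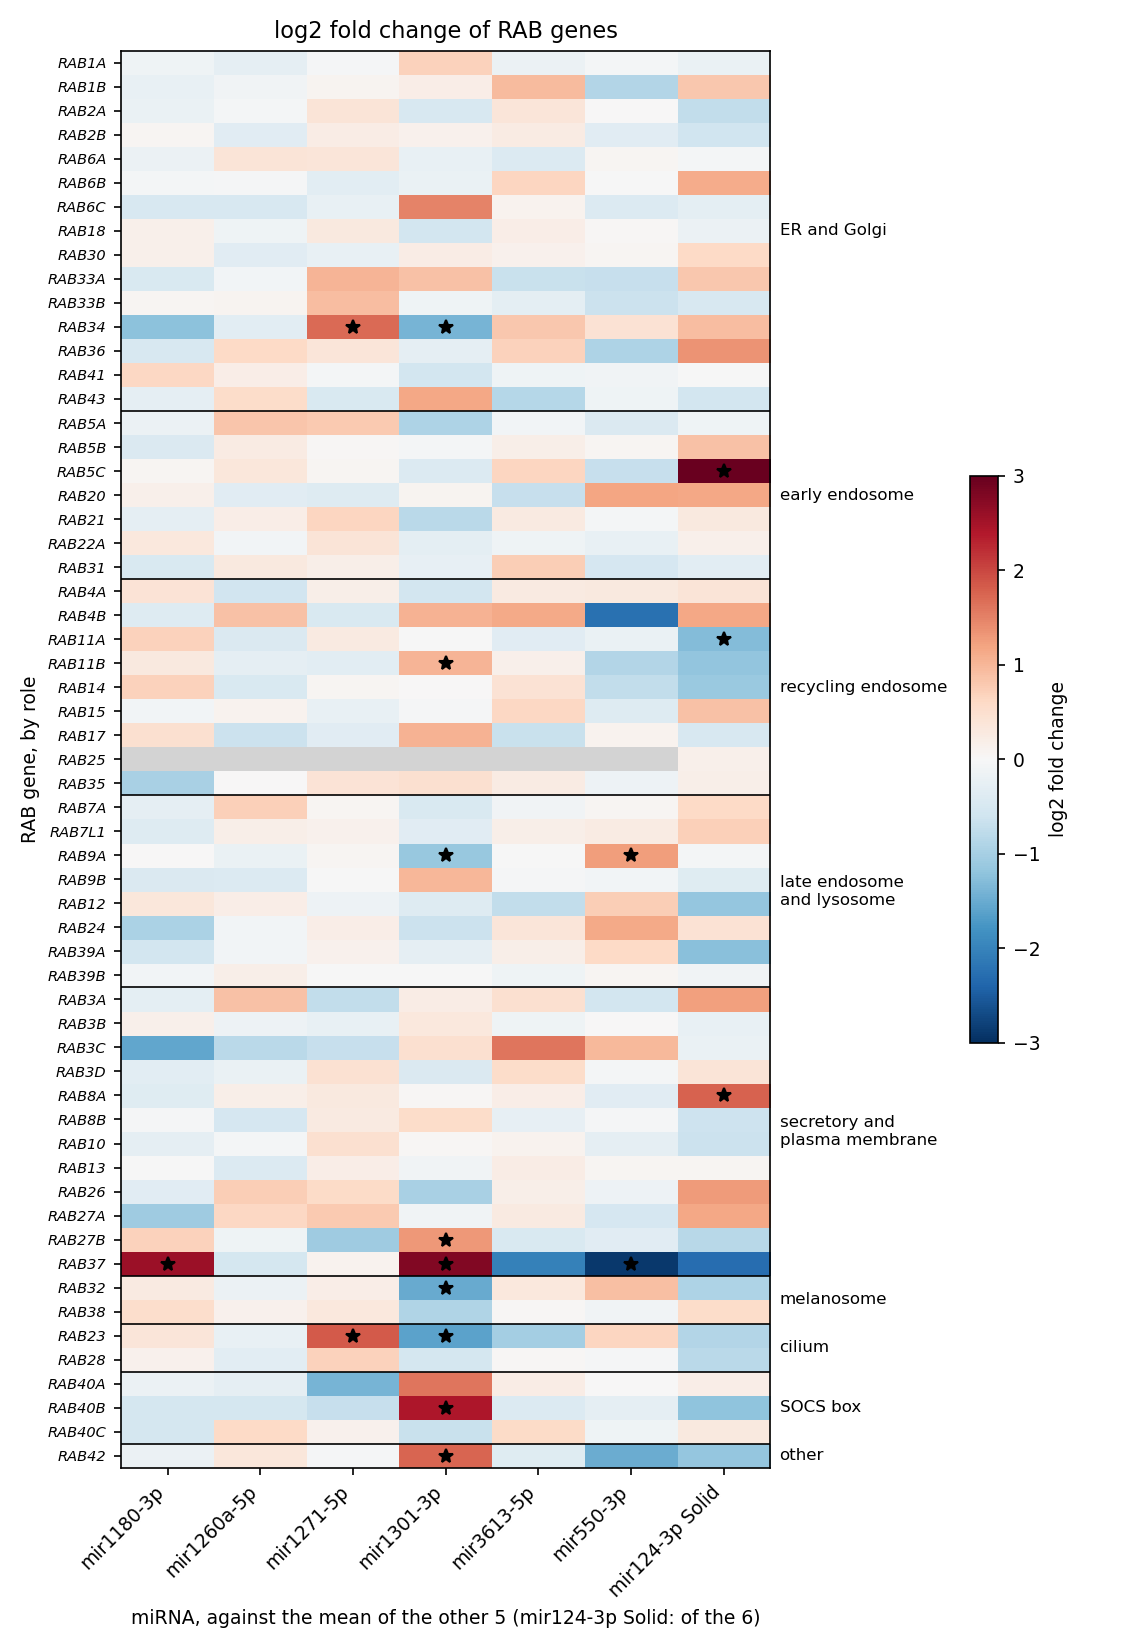
Rows are RAB genes grouped by compartment, columns the miRNA of each comparison, and colour the log2 fold change, with grey for a gene not tested and a star for an adjusted p under 0.05. Stars occur in all 9 groups, and RAB37 has both the deepest red and the deepest blue among the 6 miRNAs.

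RAB40B had the lowest adjusted p of the family in these comparisons. It belongs to the RAB40 proteins, which have a SOCS box and act as substrate adaptors of cullin-5 ubiquitin ligases. RAB40B had 965.2 and 762.9 CPM with mir1301-3p, and in the other 10 libraries the lowest was 119, the median 163.5 and the highest 188 CPM. Both mir1301-3p libraries stood far above every other one, and the other 5 miRNAs lay close together. The means were 864 ± 143 CPM with mir1301-3p (SD, n = 2) and 162 ± 22.9 CPM in the reference (SD, n = 10), a log2 fold change of 2.42 ± 0.21 (adjusted p = 7.38e-06). RAB40B kept its call in all 18 alternatives, with log2 fold changes of 2.31 to 2.83.

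Its paralogs did not pass the test. RAB40C had 3.29 and 18.2 CPM with mir1301-3p, against 8.58 to 33.5 CPM, so one library was the lowest of the 12 and the other inside the spread, with a log2 fold change of -0.66 ± 0.56 (adjusted p = 0.395). RAB40A had 1.34 and 5.55 CPM with mir1301-3p, against 0 to 2.88 CPM, and a log2 fold change of 1.61 ± 0.74 (adjusted p = 0.125). RAB40A is nearly identical to RAB40AL, so its counts are uncertain. With mir1271-5p RAB40A had the lowest log2 fold change of the 58 RAB genes, -1.40 ± 0.96 (adjusted p = 0.64).

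RAB23 and RAB34 were highest with mir1271-5p and lowest with mir1301-3p. RAB23 is a negative regulator of Hedgehog signalling that acts at the primary cilium. RAB23 had 364 and 432 CPM with mir1271-5p, and in the other 10 libraries 53.5 at the lowest, 109 at the median and 246 at the highest. Both mir1271-5p libraries lay above all others, and RAB23 rose by a log2 fold change of 1.84 ± 0.26 (adjusted p = 0.00171). The call held in all 19 alternatives. With mir1301-3p it had 53.5 and 57.8 CPM, against 73.6 to 432 CPM with a median of 173 CPM, so these were the lowest 2 libraries of the 12. RAB23 fell by 1.61 ± 0.34 on the log2 scale there (adjusted p = 0.0119), a call lost without mir1301-3p replicate 1 (adjusted p = 0.122) or 2 (0.0883). RAB28, the other ciliary member, had a log2 fold change of 0.69 ± 0.26 with mir1271-5p (adjusted p = 0.406) and -0.52 ± 0.28 with mir1301-3p (adjusted p = 0.187). RAB23 overlaps BAG2 and PRIM2 in the annotation, and no source used here gives the strand setting of the counting, which holds for every overlap named below.

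RAB34 works at the Golgi, in macropinocytosis and in the building of cilia. RAB34 had 130 and 167 CPM with mir1271-5p, against 16.7 at the lowest, 49.0 at the median and 97.7 at the highest of the other 10. These libraries did not overlap, and RAB34 rose by a log2 fold change of 1.71 ± 0.30 (adjusted p = 0.00899). Without mir1271-5p replicate 2 the log2 fold change was 1.56 and the adjusted p 0.163. With mir1301-3p it had 16.7 and 32.9 CPM, against 24.2 to 167 CPM, and overlapped the mir1180-3p libraries at 24.2 and 34.9 CPM. RAB34 fell by 1.40 ± 0.37 on the log2 scale with mir1301-3p (adjusted p = 0.0249), a call lost without mir1301-3p replicate 1 (adjusted p = 0.225) or 2 (0.0626). With mir1180-3p its log2 fold change of -1.24 ± 0.37 had an adjusted p of 0.109. Of the other Golgi members RAB33A had the third largest increase with mir1271-5p, 1.03 ± 0.70 (adjusted p = 0.64), with 0.424 and 3.93 CPM in the 2 libraries, and it was -1.16 without replicate 2.

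**Figure D3:**
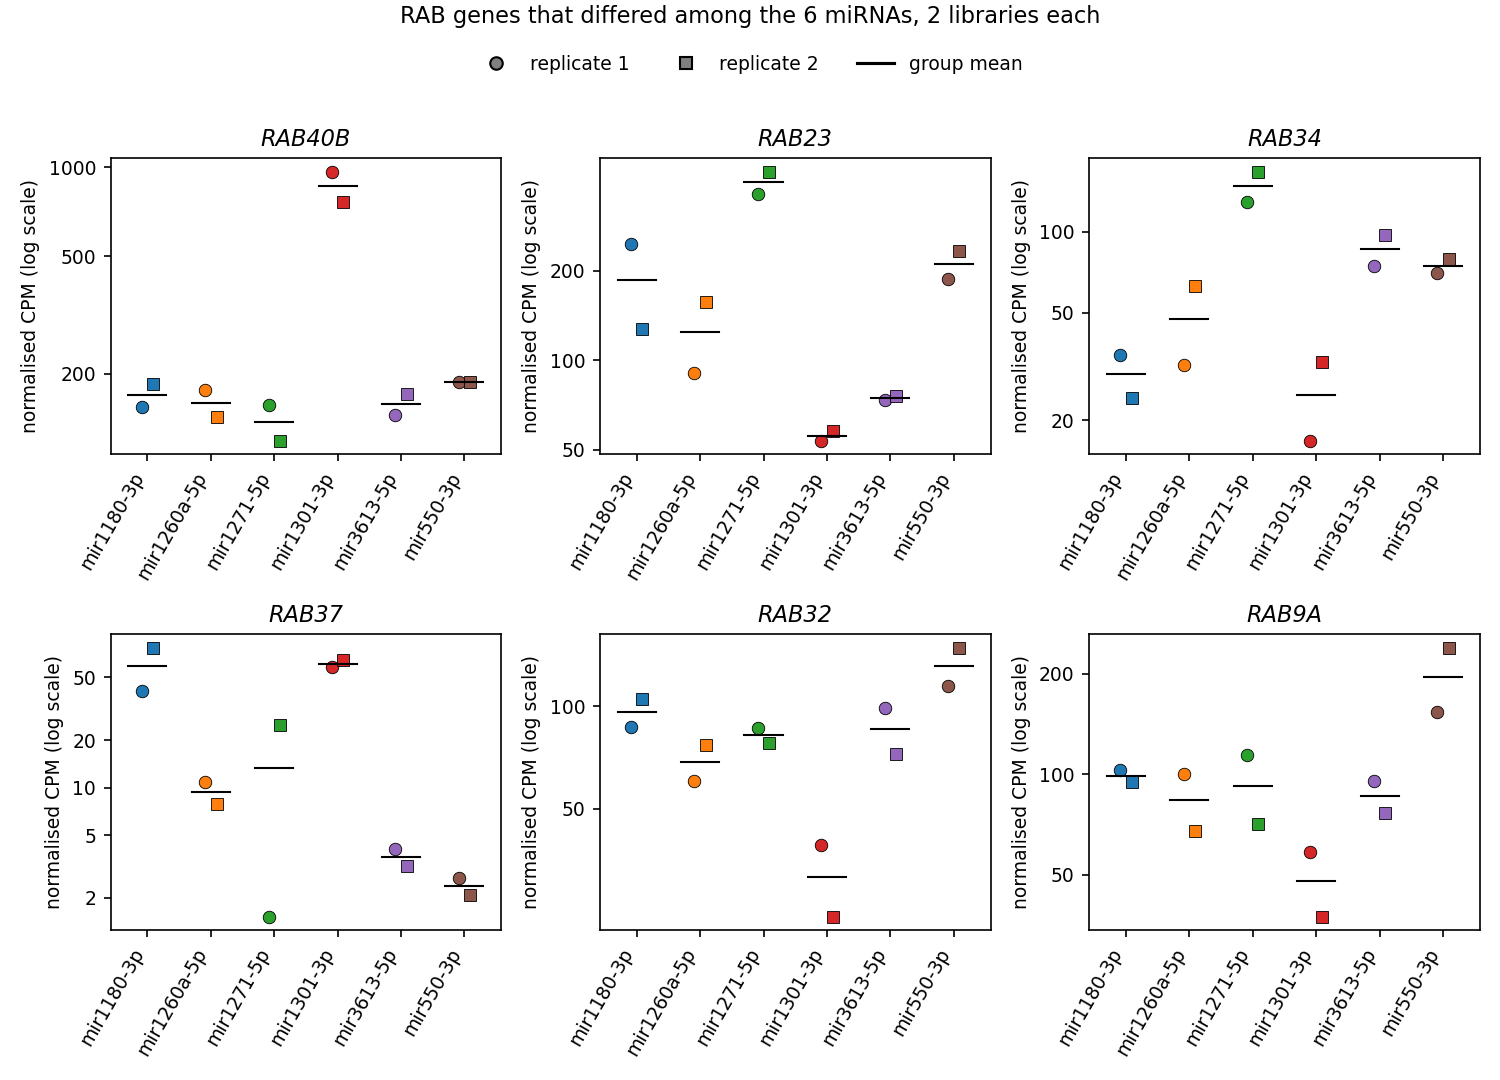
CPM on log axes in each of the 12 libraries, by miRNA, for the 6 RAB genes that passed the test for any difference, with black lines at group means. RAB40B sits apart with mir1301-3p, RAB23 and RAB34 are highest with mir1271-5p, RAB9A is highest with mir550-3p, and RAB37 spreads from 1.51 to 76.8 CPM.

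RAB37 had the widest range of miRNA means. It regulates the release of secretory granules and vesicles. RAB37 had 57.9 and 64.2 CPM with mir1301-3p, 41.1 and 76.8 CPM with mir1180-3p, and 10.8 and 7.85 CPM with mir1260a-5p. With mir3613-5p it had 4.065 and 3.205 CPM, and with mir550-3p 2.65 and 2.08 CPM. The mir1271-5p libraries had 1.51 and 25.1 CPM, a gap of 3.92 in log2 CPM and the widest of any RAB gene. So the 4 libraries of mir1301-3p and mir1180-3p were the highest of the 12, and they overlapped each other.

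Against the other 5 miRNAs RAB37 rose with mir1301-3p by a log2 fold change of 2.77 ± 0.46 (adjusted p = 0.00319) and with mir1180-3p by 2.56 ± 0.47 (adjusted p = 0.00404). It fell by 2.90 ± 0.70 on the log2 scale with mir550-3p (adjusted p = 0.0459), where the libraries overlapped the reference through the lower mir1271-5p library. The mir550-3p call was lost in 14 of 19 alternatives, with adjusted p up to 0.456. The mir1301-3p call was lost without mir1301-3p replicate 2 (adjusted p = 0.0536), and the mir1180-3p call without mir1180-3p replicate 2 (log2 fold change 2.09, adjusted p = 0.242). With mir3613-5p the log2 fold change was -2.02 ± 0.65 (adjusted p = 0.236). RAB37 overlaps CD300LF and RAB37-AS1.

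RAB27B, of exosome and granule secretion, had 6.368 and 6.891 CPM with mir1301-3p, against 1.575 at the lowest, 2.59 at the median and 6.887 at the highest of the other 10. The high library of the reference was one of mir1180-3p, and the groups overlapped. RAB27B rose with mir1301-3p by a log2 fold change of 1.30 ± 0.38 (adjusted p = 0.0316), a call lost in 4 of 18 alternatives, without either mir1301-3p library among them. With mir1180-3p, which held 3.34 and 6.887 CPM, its log2 fold change was 0.70 ± 0.39 (adjusted p = 0.452). RAB27B had 1.575 and 1.73 CPM with mir1271-5p, the lowest 2 of the 12, with a log2 fold change of -1.06 ± 0.46 (adjusted p = 0.498). RAB3C, a synaptic vesicle RAB, had a log2 fold change of 1.61 ± 0.45 with mir3613-5p (adjusted p = 0.197), -1.57 ± 0.60 with mir1180-3p (adjusted p = 0.242) and -0.80 ± 0.55 with mir1260a-5p (adjusted p = 1). RAB3A, which acts in neurotransmitter release, had 0.88 ± 0.45 with mir1260a-5p (adjusted p = 0.966).

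Among late endosomal members RAB9A was highest with mir550-3p and lowest with mir1301-3p. RAB9A directs mannose 6-phosphate receptors from late endosomes back to the Golgi. RAB9A had 153 and 239 CPM with mir550-3p, against 37.3 at the lowest, 85.6 at the median and 114 at the highest of the other 10. The libraries did not overlap, and the means were 196 ± 60.8 CPM (SD, n = 2) and 81.8 ± 23.7 CPM (SD, n = 10). RAB9A rose with mir550-3p by a log2 fold change of 1.26 ± 0.27 (adjusted p = 0.0243). This call was lost in 5 of 19 alternatives: without mir550-3p replicate 1 the log2 fold change was 1.5 (adjusted p = 0.121), without replicate 2 it was 0.97 (0.473), and with mir1301-3p left out it was 1.08 (0.0936). The other losses came without mir3613-5p replicate 2 (0.0503) or mir1180-3p replicate 2 (0.0556). RAB9A had 37.3 and 58.5 CPM with mir1301-3p, against 67.5 to 239 CPM, the lowest 2 libraries of the 12, and it fell by 1.14 ± 0.32 on the log2 scale (adjusted p = 0.0299). That call was lost in 4 of 18 alternatives, without mir1301-3p replicate 1 (adjusted p = 0.123) or 2 (0.238), without mir1180-3p replicate 1 (0.0518) and with upper-quartile scaling.

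RAB24, linked to autophagy, had 73.6 and 101 CPM with mir550-3p, against 12.9 to 55.7 CPM, with a log2 fold change of 1.13 ± 0.34 (adjusted p = 0.106). DESeq2 called RAB24 higher there (log2 fold change 1.17, adjusted p = 0.0332). With mir550-3p 7 of the 8 late endosomal and lysosomal members had a positive log2 fold change, with a median of 0.42 and a range of -0.09 to 1.26. Of all 17658 genes 8235 were positive there, with a median of -0.05. With mir1301-3p 7 of the 8 were negative, with a median of -0.36. Of all 17658 genes 8948 were negative there, with a median of -0.02. RAB9B was the exception among these 8 with mir1301-3p, at 0.99 ± 0.40 (adjusted p = 0.0871). Negative values there were not particular to this group. Of the 7 early endosomal members 6 were negative (median -0.29), as were all ciliary and melanosome members. Over all 58 RAB genes 34 were negative and 24 positive. The role groups were drawn up with earlier results of these data known, and mir1301-3p is part of the mir550-3p reference. These sign counts therefore only describe the groups and are not a test.

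RAB32, needed for melanosomes and other lysosome-related organelles, had 24.1 and 39.1 CPM with mir1301-3p, against 60.2 at the lowest, 86.75 at the median and 148 at the highest of the other 10. The groups did not overlap, and RAB32 fell by 1.52 ± 0.32 on the log2 scale (adjusted p = 0.011), a call lost without mir1301-3p replicate 1 (adjusted p = 0.0704) or 2 (0.125). RAB38, its close relative in melanosome formation, had a log2 fold change of -0.90 ± 0.53 (adjusted p = 0.223). RAB32 was highest with mir550-3p, at 114.5 and 148 CPM, with a log2 fold change of 0.90 ± 0.26 (adjusted p = 0.09). DESeq2 called RAB32 higher there (log2 fold change 0.94, adjusted p = 0.0252).

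Of the recycling endosome members RAB11B, which returns cargo to the cell surface, had 37.9 and 55.3 CPM with mir1301-3p, against 11.1 at the lowest, 22.75 at the median and 37.1 at the highest of the other 10. It rose by a log2 fold change of 1.01 ± 0.33 (adjusted p = 0.049), a call lost in 10 of 18 alternatives, with adjusted p up to 0.417. The groups did not overlap. RAB11B overlaps RAB11B-AS1. RAB11A, its paralog, had 578 and 591 CPM with mir1180-3p, against 266 to 446.5 CPM, with a log2 fold change of 0.70 ± 0.24 (adjusted p = 0.181). RAB4B, of fast recycling, had 1.18 and 1.07 CPM with mir550-3p, against 1.58 to 9.53 CPM, with a log2 fold change of -2.23 ± 0.56 (adjusted p = 0.0549). It gained this call in some alternatives, among them DESeq2 (adjusted p = 0.00102) and mir124-3p_Solid added to the reference (0.0454). RAB4B also had 0.89 ± 0.43 with mir1260a-5p (adjusted p = 0.948) and 1.14 ± 0.42 with mir3613-5p (adjusted p = 0.27). RAB17, of epithelial recycling, had -0.65 ± 0.55 with mir1260a-5p (adjusted p = 1).

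RAB42, which stands outside these groups, was rare. RAB42 had 1.03 and 1.70 CPM with mir1301-3p, against 0.201 at the lowest, 0.491 at the median and 0.808 at the highest of the other 10, and the groups did not overlap. RAB42 rose by a log2 fold change of 1.74 ± 0.50 (adjusted p = 0.0316). That call was lost in 6 of 18 alternatives, among them without mir1301-3p replicate 1 (adjusted p = 0.124) or 2 (0.343) and with DESeq2 (0.103).

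No early endosomal member was called in the comparisons of the 6 miRNAs. RAB5A, which drives early endosome fusion, had 216 and 88.0 CPM with mir1260a-5p, against 44.9 to 189 CPM, with a log2 fold change of 0.84 ± 0.33 (adjusted p = 0.789). RAB20, found on endosomes and phagosomes, had 1.18 ± 0.48 with mir550-3p (adjusted p = 0.229). RAB1B, of traffic between the endoplasmic reticulum and the Golgi, had 0.95 ± 0.39 with mir3613-5p (adjusted p = 0.306), and RAB23 had -1.01 ± 0.32 there (adjusted p = 0.233).

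The mir1301-3p counts depended on its 2 libraries and on the scaling. Leaving out either mir1301-3p library left 1 in the group, and fewer RAB genes were called. Without replicate 1 fewer of all genes were called too, so that loss was not particular to RAB genes. RAB40B had log2 fold changes of 2.31 to 2.83 over the alternatives. Upper-quartile scaling moved the median of all genes by 0.40, from -0.02 to 0.38, and that of the RAB genes from -0.08 to 0.31. The share of all genes called with that scaling is not given here. With it there were 11 higher and 3 lower RAB calls, against 5 and 4 with the main scaling, so these counts cannot be set against a background. RAB9A was the lower call that was lost, at -0.72 (adjusted p = 0.0726).

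The mir124-3p_Solid library was then compared with the other 6 miRNAs averaged. It was assumed to vary as the other groups do, since it is a single library, and a missing call does not show that a gene was unchanged there. In this comparison mir124-3p cannot be told apart from the library and its preparation. TNRC6A held 5.11% of counts in that library, against 0.665% to 1.49% in the 12. The comparison had 59 RAB genes tested, of which 2 rose (3.39%), against 7.31% of all genes, and 1 fell (1.69%), against 1.58%. With upper-quartile scaling, which moved the median of all genes from -0.12 to -0.3, 2 rose and 3 fell. The share of all genes called with that scaling is not given here, so these counts have no background. RAB5C, an early endosome RAB, had 213 CPM in the mir124-3p_Solid library, and 17.3 at the lowest, 25.1 at the median and 40.2 CPM at the highest of the 12. RAB5C rose by a log2 fold change of 2.97 ± 0.32 (adjusted p = 1.9e-05). The 3 Illumina libraries of mir124-3p had 274, 153 and 248 CPM and also lay above all 12. The paralogs RAB5A and RAB5B had 90.65 and 67.65 CPM in the mir124-3p_Solid library, with log2 fold changes of -0.14 ± 0.48 (adjusted p = 0.895) and 0.87 ± 0.37 (adjusted p = 0.159). RAB5C overlaps RAB5C-AS1.

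RAB8A, which carries vesicles to the plasma membrane and the cilium, had 101 CPM in the mir124-3p_Solid library, and 19.8 at the lowest, 27.4 at the median and 35.4 CPM at the highest of the 12. RAB8A rose by a log2 fold change of 1.77 ± 0.33 (adjusted p = 0.00246), and the Illumina libraries had 114, 110 and 128 CPM. Both RAB5C and RAB8A kept their calls in all 17 alternatives. RAB8B, the paralog, had 17.5 CPM and a log2 fold change of -0.61 ± 0.42 (adjusted p = 0.399). RAB8A overlaps HSH2D. RAB11A had 159 CPM in the mir124-3p_Solid library, and 266 at the lowest, 335 at the median and 591 CPM at the highest of the 12. RAB11A fell by 1.31 ± 0.38 on the log2 scale (adjusted p = 0.039), a call lost on leaving out any 1 library of mir1180-3p, mir3613-5p or mir550-3p (adjusted p up to 0.0685), and the Illumina libraries had 147, 195 and 138.5 CPM. RAB36, a Golgi member, had 1.34 ± 0.53 (adjusted p = 0.125), and RAB37 had -2.28 ± 0.93 (adjusted p = 0.14).

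**Figure D4:**
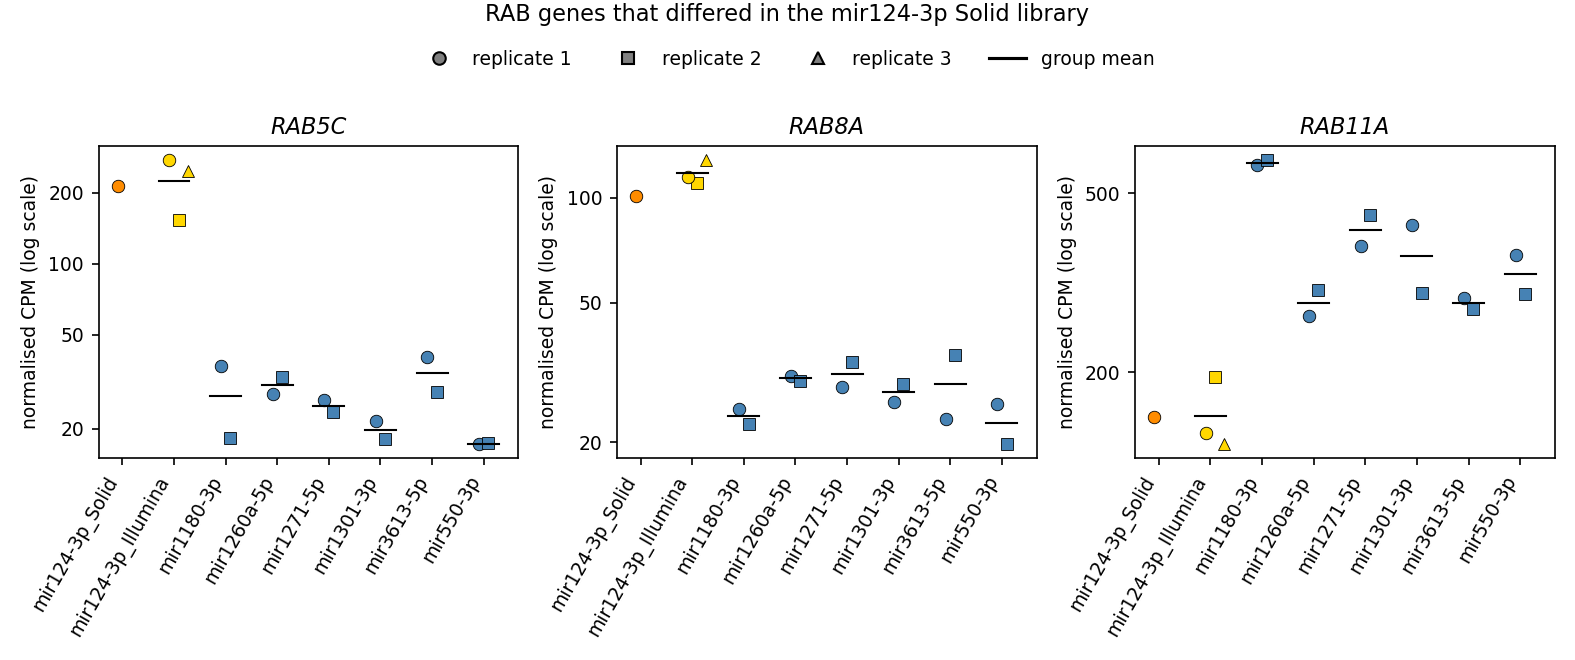
CPM on log axes in the mir124-3p_Solid library (orange), the 3 mir124-3p_Illumina libraries (yellow) and the 12 libraries of the other miRNAs (blue), with black lines at group means. RAB5C and RAB8A are higher, and RAB11A lower, in all 4 mir124-3p libraries than in the 12.

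The 3 Illumina libraries of mir124-3p were set against the mir124-3p_Solid library, in which platform, preparation and library cannot be told apart. Over all genes the log2 fold change had a median of -0.39 and over RAB genes of -0.24. Both medians depended on the scaling and on single libraries: with DESeq2's size factors they were -0.06 and 0.11, and without either mir1301-3p library 0.02 and 0.18. Of 59 RAB genes 3 were higher (5.08%), against 2.37% of all genes, and 2 were lower (3.39%), against 19.5%. RAB43, of the Golgi, had 76.7, 67.9 and 88.8 CPM in the Illumina libraries and 1.82 CPM in the mir124-3p_Solid library, a log2 fold change of 5.41 ± 0.65 (adjusted p = 8.23e-06). RAB4B had 99.8, 67.6 and 100.2 CPM, against 9.83 CPM, a log2 fold change of 3.18 ± 0.64 (adjusted p = 0.000969). The third was RAB13, of tight junctions, with 239, 254 and 247 CPM, against 52.9 CPM, a log2 fold change of 2.22 ± 0.50 (adjusted p = 0.00262). All 3 genes had higher levels in every Illumina library than in any of the other 13 libraries. RAB43 overlaps ISY1-RAB43, and RAB4B overlaps MIA-RAB4B and RAB4B-EGLN2.

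RAB27B had 8 counts in the Illumina libraries together and 24 in the mir124-3p_Solid library, a log2 fold change of -3.58 ± 0.67 (adjusted p = 0.000521). RAB17 had 1 count in the Illumina libraries together and 10 in the mir124-3p_Solid library. The ratio was 0.0233, with a 95% interval of 0.000538 to 0.164 that covers counting error only. The edgeR log2 fold change of RAB17 was -4.86 ± 1.07 (adjusted p = 0.00215). All 5 calls held in all 19 alternatives, including without Illumina replicate 2, the library that stood apart in TNRC6A.

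**Figure D5:**
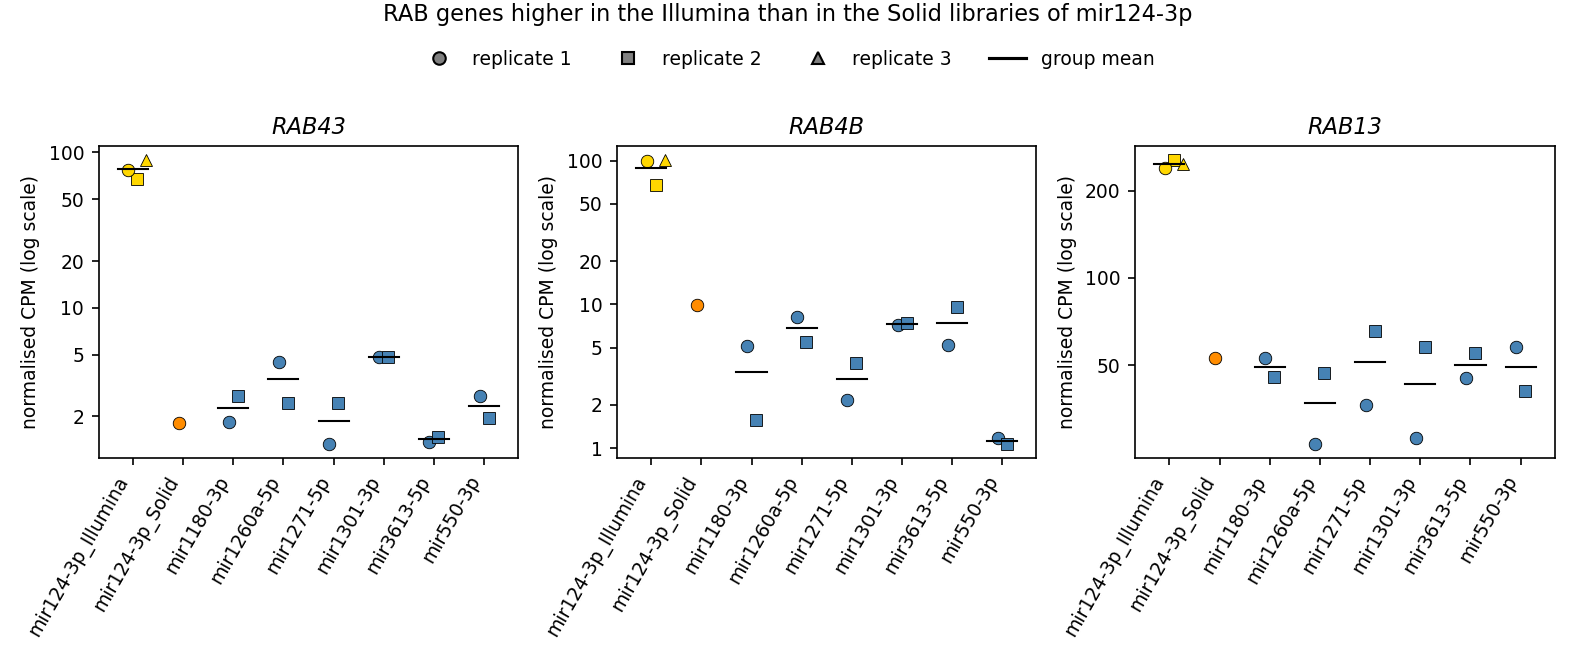
CPM on log axes for the 3 RAB genes higher in the mir124-3p_Illumina libraries (yellow) than in the mir124-3p_Solid library (orange), with the 12 libraries of the other miRNAs in blue and black lines at group means. RAB43 has 67.9 to 88.8 CPM in the Illumina libraries and 1.82 CPM in the mir124-3p_Solid library.

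Few regulators of RAB proteins passed the test. A list of 129 genes held 8 for prenylation and recycling of RABs, 35 GEFs, 35 GAPs and 51 effectors, all tested. DESeq2 called 6 of them with mir1180-3p, where it called 693 of all genes, and 6 with mir550-3p, where it called 880. It called 11 with mir1301-3p, 3 with mir1271-5p and 0 with mir1260a-5p. Its share of all genes is not given here for mir1301-3p and mir1271-5p. The calls that follow are those of edgeR. With mir1301-3p 3 rose (2.33%), against 11.5% of all genes, and 1 fell (0.775%), against 4.39%. Among them were RINL, a GEF of the RIN family (log2 fold change 2.04 ± 0.40, adjusted p = 0.00865), MLPH, a RAB27A effector of melanosomes (1.33 ± 0.41, adjusted p = 0.04), and VPS16, a subunit of the tethering complexes of late endosomes (-1.12 ± 0.37, adjusted p = 0.0465). With mir1180-3p 1 rose (0.775%, against 1.92% of all genes), RIN2, a RAB5 GEF, with 79.6 and 57.0 CPM, against 15.4 to 30.0 CPM (1.62 ± 0.29, adjusted p = 0.00348). With mir1271-5p 2 rose (1.55%, against 0.606% of all genes), ANKRD27, a RAB21 GEF and RAB32 effector (1.28 ± 0.27, adjusted p = 0.0318), and RABGAP1L, a GAP (1.43 ± 0.30, adjusted p = 0.0318).

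SYTL2 and SYTL3, synaptotagmin-like effectors of RAB27, were called with mir1260a-5p or mir550-3p, with wide gaps between partners. SYTL2 had 226 and 37.0 CPM with mir1260a-5p, 2.29 and 4.96 CPM with mir550-3p and 4.74 to 74.35 CPM in the other 8 libraries. It rose with mir1260a-5p by a log2 fold change of 2.70 ± 0.52 (adjusted p = 0.0444), the 1 regulator called there (0.775%, against 0.215% of all genes higher). It fell with mir550-3p by 3.52 ± 0.81 on the log2 scale (adjusted p = 0.0434). SYTL3 rose with mir550-3p by a log2 fold change of 3.14 ± 0.66 (adjusted p = 0.0251), although 1 library had 75.1 CPM and the other 1.47 CPM, against 1.93 to 10.7 CPM. TBC1D10B, a RAB GAP, had 18.3 and 15.95 CPM with mir550-3p, against 40.8 to 98.6 CPM, and fell by 1.84 ± 0.35 on the log2 scale (adjusted p = 0.0135). The 1 regulator that rose with mir550-3p and the 2 that fell were 0.775% and 1.55%, against 1.20% and 0.306% of all genes. For mir3613-5p edgeR called 0 regulators and DESeq2 called 3, where DESeq2 called 142 of all genes. There 17 regulators (13.2%) had an unadjusted p under 0.05, against 14.1% of all genes.

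In the mir124-3p_Solid library 6 regulators rose (4.65%), against 7.31% of all genes, and 1 fell (0.775%), against 1.58%. The 3 with the lowest adjusted p among those that rose were VPS11, of the same tethering complexes as VPS16 (57.5 CPM, against 11.8 to 28.5 CPM, log2 fold change 1.53 ± 0.35, adjusted p = 0.0101), TBC1D20, a RAB1 GAP (1.45 ± 0.33, adjusted p = 0.011), and TBC1D7, of the TSC complex (1.39 ± 0.36, adjusted p = 0.0216). CHML, an escort protein for prenylation, had 34.1 CPM, against 74.4 to 170 CPM, and fell by 1.79 ± 0.45 on the log2 scale (adjusted p = 0.0173). Between the Illumina and the mir124-3p_Solid libraries 2 regulators were higher (1.55%), against 2.37% of all genes, and 6 lower (4.65%), against 19.5%. The higher ones were CCZ1B, at 6.235, 8.43 and 8.90 CPM in the Illumina libraries and 1.19 CPM in the mir124-3p_Solid library (log2 fold change 2.71 ± 0.79, adjusted p = 0.0159), and CCZ1, its near-identical copy (2.03 ± 0.69, adjusted p = 0.0388), both RAB7 GEF subunits whose counts are therefore uncertain. Of those lower, TBC1D14, a RAB11-binding protein of autophagy, had 22.1, 9.65 and 19.5 CPM, against 98.2 CPM (-2.52 ± 0.38, adjusted p = 8.46e-05). RABGAP1L had 0 counts in all 3 Illumina libraries, which allows up to 0.138 to 0.192 CPM, against 11.8 CPM in the mir124-3p_Solid library (adjusted p = 8.27e-08). RPH3A, a RAB3 effector of synaptic vesicles, also had 0 counts in them, against 2.30 CPM (adjusted p = 3.9e-05). The cause of these 0 counts was not tested, so they do not show that the mRNAs were absent.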

How the data were processed

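The authors deposited one table of raw read counts per RefSeq gene, unnormalised, with 1 column for each of the 16 libraries. TopHat2 and hg19 are named per the submitters' processing notes. Not given in the sources used here are the annotation release, strand setting and counting tool, the TopHat2 version, and which sequencer read the 12 libraries other than mir124-3p. RNA was extracted with Trizol, and a SOLiD kit is named for every library, per the labels.

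Counts were tested in R 4.3.3 with edgeR 4.0.16 (filterByExpr, TMM scaling, robust quasi-likelihood tests of group means, two-sided) over all genes, with Benjamini-Hochberg adjustment and calls under 0.05. Each miRNA was contrasted with the mean of the other 5 in the 12-library fit. The mir124-3p_Solid library was fitted with those 12, and the platforms in a fit of all 16. Where a group had 1 library it was assumed to vary like the others. Errors of fold changes are standard errors and errors of CPM are standard deviations. DESeq2 1.42.0, other scalings, no filter, a replicate block, other references and leaving out each library were tried. The steps were tested on simulated data.

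Genes named were those called, and per miRNA the 3 largest increases and 2 largest decreases, with at most 3 regulators per direction. One regulator that this rule would name is not reported here. RAB members, role groups and lists were chosen with earlier results of these data known. RAB6C and RAB40A share near-identical copies, and their counts are uncertain. Coordinates and sequences of miRNAs came from RefSeq. Positions of RAB genes in RefSeq were used only to list the genes that overlap them.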

Additional observations from a re-analysis of the deposited data

How the results depend on the processing

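Of the log2 fold changes of named RAB genes, 743 values under the alternatives kept direction and side of the threshold, 58 lost the call, 15 gained one and 1 reversed: RAB33A with mir1271-5p was -1.16 without mir1271-5p replicate 2 and 1.94 without replicate 1. With upper-quartile scaling the RAB genes called were 2 for mir1180-3p, 14 for mir1301-3p, 1 for mir550-3p and 5 for mir124-3p_Solid (2 higher and 3 lower). The shares of all genes called with that scaling are not given here, so these counts have no background. DESeq2 called 2 for mir1180-3p, 1 for mir3613-5p, 5 for mir550-3p, 11 for any difference and 7 for mir124-3p_Solid. Over all genes DESeq2 called 693, 142, 880, 3378 and 2678 in those comparisons, against 366, 16, 266, 1010 and 1613 with edgeR. So its calls were more numerous over all genes too. With mir1301-3p left out, mir1180-3p had 2 and mir550-3p 0. With the replicate number as a block, mir550-3p had 1 and mir124-3p_Solid 6 (RAB14, RAB33A and RAB40B gained a call there), RAB43 gained a call with mir1301-3p (1.17, adjusted p = 0.0443) and RAB37 lost its call with mir550-3p. The labels name no shared batch, and the numbers were not taken to pair the libraries, since the correlation between deviations of same-numbered libraries exceeded 0.1 in 6 of 15 pairs of miRNAs. Those 6 were all the pairs among mir1260a-5p, mir1271-5p, mir1301-3p and mir3613-5p (0.20 to 0.36), and none of the pairs with mir1180-3p or mir550-3p. Leaving out each library gave 0 to 1 calls for mir1180-3p, 0 to 0 for mir1260a-5p, 1 to 2 for mir1271-5p, 1 to 12 for mir1301-3p, 0 to 1 for mir3613-5p, 0 to 3 for mir550-3p, 4 to 7 for any difference, 2 to 6 for mir124-3p_Solid and 5 to 6 between platforms. The cause of these moves was not tested, and a fit with a library left out also had fewer libraries. Over all genes, the calls were 2815 for mir1301-3p (114 to 4509 under the alternatives), 366 for mir1180-3p (170 to 693), 266 for mir550-3p (9 to 880), 107 for mir1271-5p (35 to 174), 38 for mir1260a-5p (19 to 72), 16 for mir3613-5p (8 to 142), 1010 for any difference (360 to 3378) and 1613 for mir124-3p_Solid (1257 to 2678). With 2 libraries a group and a common biological coefficient of variation of 0.35, and RAB genes under 1 CPM resting on few counts, a missing call does not show that a gene was unchanged.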
